A study of Saccharomyces cerevisiae BY4741 with 8 samples.

Results

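The *ADE* genes of budding yeast encode the enzymes that build AMP from phosphoribosyl pyrophosphate (PRPP), and 10 of them were followed here among the 6388 genes on spotted genome arrays. The members were the spots named for the systematic names of *ADE4*, *ADE5,7*, *ADE8*, *ADE6*, *ADE2*, *ADE1*, *ADE13*, *ADE17*, *ADE12* and *ADE3*, and all 10 were found with 1 spot each. The rule goes by gene name and not by a measured value, and the set was chosen with earlier results of these data known. Early log phase cultures of *S. cerevisiae*, labelled as the haploid strain BY4741 in every sample, were split, and over 3 h 1 part received KP1019 at 80 or 40 μg/ml while the other part grew on without drug. KP1019 is a ruthenium complex developed as an anticancer drug. All cultures grew in synthetic complete medium with glucose. The labels gave 2 biological replicates treated with 80 μg/ml, 2 treated with 40 μg/ml and an untreated part of each culture, and no other allele or agent. Treated and untreated cDNA of a replicate were hybridized together on 2 arrays (A and B) with the Cy5 and Cy3 dyes switched, which made 8 arrays.

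In the de novo pathway, a purine ring is built step by step on PRPP until IMP is formed, and IMP is then turned into AMP or GMP. Formyl groups for 2 of the steps come from tetrahydrofolate, which ties the pathway to one-carbon metabolism. In yeast most *ADE* genes are switched on together by the transcription factors Bas1 and Pho2 when adenine is scarce, and cells can also take up and salvage adenine from the medium. ADP, ATP and, through ribonucleotide reductase, dATP are made from the product.

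A positive log2 ratio means a higher transcript level in treated cells. Ratios were normalized within each array and the ratios of both arrays were averaged to 1 value per replicate. Each dose was tested against 0 with limma over the 4 replicates (two-sided, Benjamini-Hochberg adjustment over 6388 genes, threshold 0.05). Means are given ± SD of n = 2 replicates. No slide or scan batch is named in the labels, and the number of arrays limits the precision. Median raw intensities lay between 293.7 and 3736 for treated cDNA and between 515.4 and 4017 for untreated cDNA. Treated cDNA was the dimmer one on every array of 40 μg/ml before normalization. The medians there were 563.1, 309.3, 1165 and 293.7, against 1815, 609.9, 1328 and 644.8 for untreated cDNA. The correlation across genes between arrays A and B was 0.406 and 0.661 for the replicates of 80 μg/ml and 0.832 and 0.698 for those of 40 μg/ml. Log2 ratios of replicate 1 of 40 μg/ml had a median absolute deviation of 0.679, against 0.32 to 0.389 in the other 3 replicates.

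The label BY4741 names a MAT**a** strain that lacks *MET15*, *LEU2* and *URA3* and part of *HIS3*, and the arrays did not all show that pattern. The summed untreated signal of 6 MAT**a**-specific genes (*MFA1*, *MFA2*, *STE2*, *STE6*, *BAR1* and *AGA2*) was 29 to 106 times the array's median gene on the 80 μg/ml arrays and 1.54 to 13.7 times on the 40 μg/ml arrays. The sum of 4 MATα-specific genes (*MFALPHA1*, *MFALPHA2*, *STE3* and *SAG1*) was 0.897 to 1.05 times the median gene on the 80 μg/ml arrays and 9.58 to 11.9 times on the 40 μg/ml arrays. The sums in the treated channels showed the same split. The MAT**a** genes summed to 24.5 to 57.6 times the median gene at 80 μg/ml and 1.87 to 22.7 times at 40 μg/ml, and the MATα genes to 1.06 to 1.53 times at 80 μg/ml and 5.68 to 9.19 times at 40 μg/ml. The highest MAT**a** sums at 40 μg/ml came from an array with a bright *STE2* spot. Taken singly, the genes split less cleanly than their sums. All 6 MAT**a** genes exceeded the blank spots in every untreated channel of the 80 μg/ml arrays, and 3 of 6 still did on the 40 μg/ml arrays. For the MATα genes this held for 4 of 4 on the 40 μg/ml arrays and for 2 of 4 on the 80 μg/ml arrays. These 2 were *STE3* and *SAG1*, which exceeded the blank spots in every treated channel there too. Of the genes BY4741 lacks, *MET15* was brighter than the blank spots in both channels on all 8 arrays, at both doses, and so was *HIS3*, of which a part remains. *URA3* was so in 1 of 8 untreated and 0 of 8 treated channels. *LEU2* was above the blank spots in 1 of 4 untreated and 2 of 4 treated channels at 80 μg/ml, and in 4 of 4 untreated and 1 of 4 treated channels at 40 μg/ml. The mating-type genes were chosen after the values were seen. By the sums of the mating-type genes the 40 μg/ml arrays went against their strain label in both channels, and by *MET15* the arrays of both doses did. A ratio within an array compares cells of 1 culture, but a difference between doses cannot be told apart from one between strains or array series.

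At 80 μg/ml, 0 of the 10 *ADE* genes passed the test, while 3.52% of all 6388 genes did (2.11% higher and 1.41% lower). The members nonetheless lay mostly below 0, with 9 of 10 negative means and a median log2 ratio of -0.26, against a median of -0.00256 and 50.3% negative means over all genes. This was not particular to the members. Negative means were as frequent among guanine branch and nucleotide kinase genes (9 of 10). They made up 8 of 9 one-carbon and glycine genes, 7 of 8 pyrimidine synthesis genes and 4 of 4 listed histidine genes. Purine salvage and transport had 7 of 13 and the PRPP synthetase genes 1 of 5. The lowest member was *ADE17* at -0.69 ± 0.15. It was the single member of the 10 with an unadjusted p under 0.05, which 1180 of all 6388 genes had. At 40 μg/ml, 5 of the 10 passed, and 23.3% of all genes did. *ADE12* and *ADE8* rose, a direction called for 13% of all genes, and *ADE6*, *ADE4* and *ADE3* fell, a direction called for 10.3%. The median over the members was -0.25 with 8 of 10 means below 0, against -0.0114 and 51.1% over all genes. Between the doses, 0 of 10 members differed past the threshold, and 0.141% of all genes did (0.047% higher and 0.0939% lower at 80 μg/ml). Of the 10 members, *ADE12* and *ADE8* had an unadjusted p under 0.05 for that difference, as did 1337 of all 6388 genes. The methods' limit of 3.5-fold in both replicates was met by 0 members at either dose, and 2-fold was met by 0 as well.

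**Figure D1:**
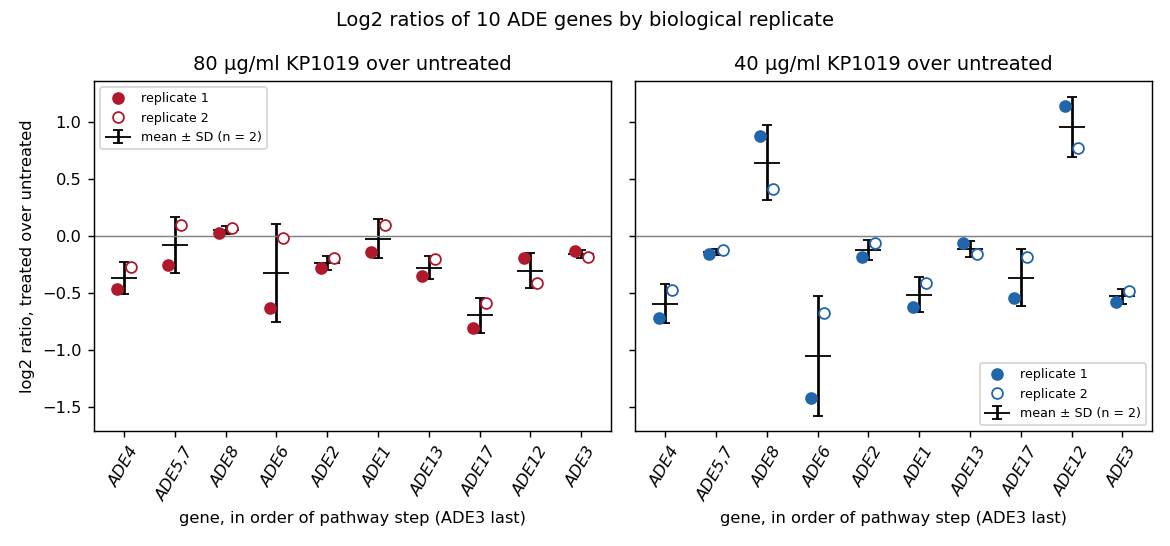
Log2 ratio of treated over untreated (y axis) for the 10 *ADE* genes in the order of their pathway step, at 80 μg/ml (left) and 40 μg/ml KP1019 (right). Filled and open circles are replicates 1 and 2, and bars give the mean ± SD (n = 2). At 80 μg/ml the means span -0.69 to 0.05, and at 40 μg/ml they span -1.05 (*ADE6*) to 0.96 (*ADE12*).

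All 10 spots were brighter than the blank spots in both channels of all 8 arrays, with raw intensities between 181 and 17589. That limit was the median blank spot plus 3 median absolute deviations. The spread of the members within a replicate (SD of their log2 ratios) was 0.25 and 0.228 at 80 μg/ml and 0.758 and 0.439 at 40 μg/ml. Over all genes it was 0.441 and 0.443 at 80 μg/ml and 0.769 and 0.478 at 40 μg/ml.

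*ADE4* (YMR300C) encodes the PRPP amidotransferase, the first committed enzyme of the pathway. Its log2 ratios were -0.69, -0.24, -0.33 and -0.21 on the arrays of 80 μg/ml and -0.57, -0.86, -0.08 and -0.87 on those of 40 μg/ml (arrays A and B of replicate 1, then of replicate 2). All 8 arrays were below 0, and those of both doses overlapped. The mean was -0.37 ± 0.14 at 80 μg/ml (limma adjusted p = 0.295) and -0.59 ± 0.17 at 40 μg/ml (adjusted p = 0.0402), where treated cells held 66.3% of the untreated level. This call was kept in 7 of 15 alternative analyses, and it was lost without replicate 1 of 40 μg/ml (adjusted p = 0.0986) and without either replicate of 80 μg/ml (adjusted p = 0.1). With a replicate left out, its dose has 1 sample, which is assumed to vary like the pair of the other dose. For the dose that keeps both replicates, both such fits give the same result as the fit of that dose alone, so that these 3 alternatives are 1 analysis.

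*ADE5,7* (YGL234W) encodes a bifunctional enzyme with GAR synthetase and AIR synthetase activity. Its mean was -0.08 ± 0.24 at 80 μg/ml (adjusted p = 0.880), with arrays from -0.58 to 0.21 on both sides of 0, and -0.14 ± 0.02 at 40 μg/ml (adjusted p = 0.586), with arrays from -0.35 to 0.11.

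*ADE8* (YDR408C) encodes GAR formyltransferase, a step that takes a formyl group from the folate pool. On the 4 arrays of 80 μg/ml its log2 ratios lay between -0.03 and 0.09. At 40 μg/ml they were 0.86 and 0.89 in replicate 1 and 0.43 and 0.40 in replicate 2, so that every array of 40 μg/ml lay above every array of 80 μg/ml. Normalized intensities in treated cells on the arrays of 40 μg/ml were 4763, 1907, 4228 and 1056, against 2626, 1026, 3139 and 801 in untreated cells. Raw intensities on these arrays were 2942, 1489, 4008 and 766 in treated cells, against 4410, 1434, 3501 and 1322 in untreated cells. The raw treated signal was thus the lower one on array A of replicate 1 and array B of replicate 2. The mean was 0.05 ± 0.03 at 80 μg/ml (limma adjusted p = 0.921) and 0.65 ± 0.33 at 40 μg/ml (adjusted p = 0.0384), a level 1.56-fold that of untreated cells. *ADE8* passed in 8 of 15 alternatives and not without replicate 1 of 40 μg/ml (log2 ratio 0.41, adjusted p = 0.138) or without either replicate of 80 μg/ml (adjusted p = 0.0675). The difference of 80 minus 40 μg/ml was -0.59 (95% interval -1.18 to -0.01, adjusted p = 0.235).

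*ADE6* (YGR061C) encodes FGAM synthetase, which acts directly after *ADE8*, and it moved the opposite way from *ADE8* at 40 μg/ml. Its log2 ratios there were -1.46 and -1.38 in replicate 1 and -0.73 and -0.62 in replicate 2. All 4 arrays were below 0, and replicate 1 lay further from 0 than replicate 2. Treated cells gave normalized intensities of 886, 494, 1384 and 364 on these arrays, against 2438, 1287, 2299 and 561 in untreated cells. The mean of -1.05 ± 0.53 (limma adjusted p = 0.0207) corresponds to 48.3% of the untreated level, the lowest of the members, and it passed in all 14 alternatives that measured it (adjusted p between 6.67e-06 and 0.0445). *ADE6* was not measured with subtracted background or among bright genes only. Without replicate 1 of 40 μg/ml the log2 ratio was -0.68, and without replicate 2 it was -1.42.

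The values of *ADE6* at 80 μg/ml were -0.26, -1.0, -0.67 and 0.63, and the single positive value came from array B of replicate 2. On that array the foreground of the spot (1320 for treated and 1453 for untreated cDNA) lay below its local background (1932 and 2723). The mean of -0.32 ± 0.43 (adjusted p = 0.532) became -0.65 (adjusted p = 0.194) without that array, an alternative added after the values were seen. Between the doses *ADE6* differed by 0.73 (80 minus 40 μg/ml, 95% interval -0.05 to 1.5, adjusted p = 0.259), and by 0.40 without that array (adjusted p = 0.501). This difference was 0.36 and 1.10 without replicate 1 and without replicate 2 of 40 μg/ml, and 1.03 and 0.42 without replicate 1 and without replicate 2 of 80 μg/ml. It passed in 1 of these fits, the one without replicate 2 of 40 μg/ml (adjusted p = 0.00540).

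*ADE2* (YOR128C) and *ADE1* (YAR015W) encode AIR carboxylase and SAICAR synthetase, the next enzymes in the order. *ADE2* averaged -0.24 ± 0.06 at 80 μg/ml (adjusted p = 0.498) and -0.12 ± 0.09 at 40 μg/ml (adjusted p = 0.615), and 7 of 8 arrays lay below 0. *ADE1* averaged -0.02 ± 0.17 at 80 μg/ml (adjusted p = 0.965) and -0.52 ± 0.15 at 40 μg/ml (adjusted p = 0.0617). The arrays of 40 μg/ml gave -0.12, -1.13, -0.54 and -0.27 for *ADE1*, so that arrays A and B of replicate 1 lay further apart than the means of the replicates did (-0.62 and -0.41). On the first of these arrays the untreated channel had a local background of 891 under a foreground of 1626.

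*ADE13* (YLR359W) encodes adenylosuccinate lyase, which acts both before IMP and in the last step to AMP. It averaged -0.28 ± 0.10 at 80 μg/ml (adjusted p = 0.422) and -0.11 ± 0.07 at 40 μg/ml (adjusted p = 0.656). All 8 of its arrays lay below 0, between -0.49 and -0.02.

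*ADE17* (YMR120C) and its isozyme *ADE16*, which is no member, encode AICAR transformylase and IMP cyclohydrolase, the last activities before IMP. For *ADE17* the log2 ratios were -0.91, -0.70, -0.56 and -0.61 at 80 μg/ml and -0.46, -0.63, -0.15 and -0.22 at 40 μg/ml. All 8 arrays were below 0, with overlap between the doses. Normalized intensities on the arrays of 80 μg/ml were 454, 2810, 3112 and 2542 in treated cells, against 852, 4556, 4580 and 3890 in untreated cells. The mean at 80 μg/ml was -0.69 ± 0.15, which is 61.8% of the untreated level, and it missed the threshold (limma adjusted p = 0.0762). It passed in 6 of 15 alternatives, of which 3 were 1 analysis, the fit of 80 μg/ml alone (adjusted p = 0.00185) and the fits without either replicate of 40 μg/ml that equal it. Without replicate 1 or replicate 2 of 80 μg/ml the adjusted p was 0.980 and 0.527. At 40 μg/ml it averaged -0.36 ± 0.25 (adjusted p = 0.166). *ADE16* averaged -0.05 ± 0.06 at 80 μg/ml (adjusted p = 0.935) and -0.56 ± 0.52 at 40 μg/ml (adjusted p = 0.0873), so that neither isozyme gene changed past the threshold at either dose. Whether the spot of either gene also bound transcripts of the other was not tested.

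*ADE12* (YNL220W) encodes adenylosuccinate synthetase, the enzyme that commits IMP to AMP rather than GMP, and it had the highest mean of the members at 40 μg/ml. On the arrays of 40 μg/ml its log2 ratios were 1.10 and 1.19 in replicate 1 and 0.49 and 1.05 in replicate 2. The arrays of 80 μg/ml gave -0.15, -0.24, -0.33 and -0.50. All 4 arrays of 40 μg/ml were above 0 and all 4 of 80 μg/ml below 0. Normalized intensities in treated cells at 40 μg/ml were 6627, 4112, 8658 and 6039, against 3094, 1802, 6160 and 2919 in untreated cells. On the arrays of 80 μg/ml they were 2301, 9281, 6775 and 5472 in treated cells, against 2549, 10962, 8497 and 7723 in untreated cells. Raw intensities at 40 μg/ml were 4066, 3052, 8224 and 3859 in treated cells, against 5025, 2577, 7339 and 4651 in untreated cells. Before normalization the treated signal was thus the lower one on array A of replicate 1 and array B of replicate 2 of 40 μg/ml. The mean was -0.30 ± 0.15 at 80 μg/ml (limma adjusted p = 0.419) and 0.96 ± 0.26 at 40 μg/ml (adjusted p = 0.0125), a 1.94-fold level that passed in 15 of 16 alternatives. It missed the threshold with plain background subtraction (adjusted p = 0.0559). The difference of 80 minus 40 μg/ml was -1.26 (95% interval -1.84 to -0.68). It had an unadjusted p of 0.00112 and an adjusted p of 0.106, and it passed in 5 of 15 alternatives. The fits without replicate 1 (adjusted p = 0.0190) and without replicate 2 of 40 μg/ml (adjusted p = 0.000403) passed, where the spread comes from the pair of 80 μg/ml alone. Those without replicate 1 (adjusted p = 0.167) and without replicate 2 of 80 μg/ml (adjusted p = 0.265) did not, where it comes from the pair of 40 μg/ml alone.

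**Figure D2:**
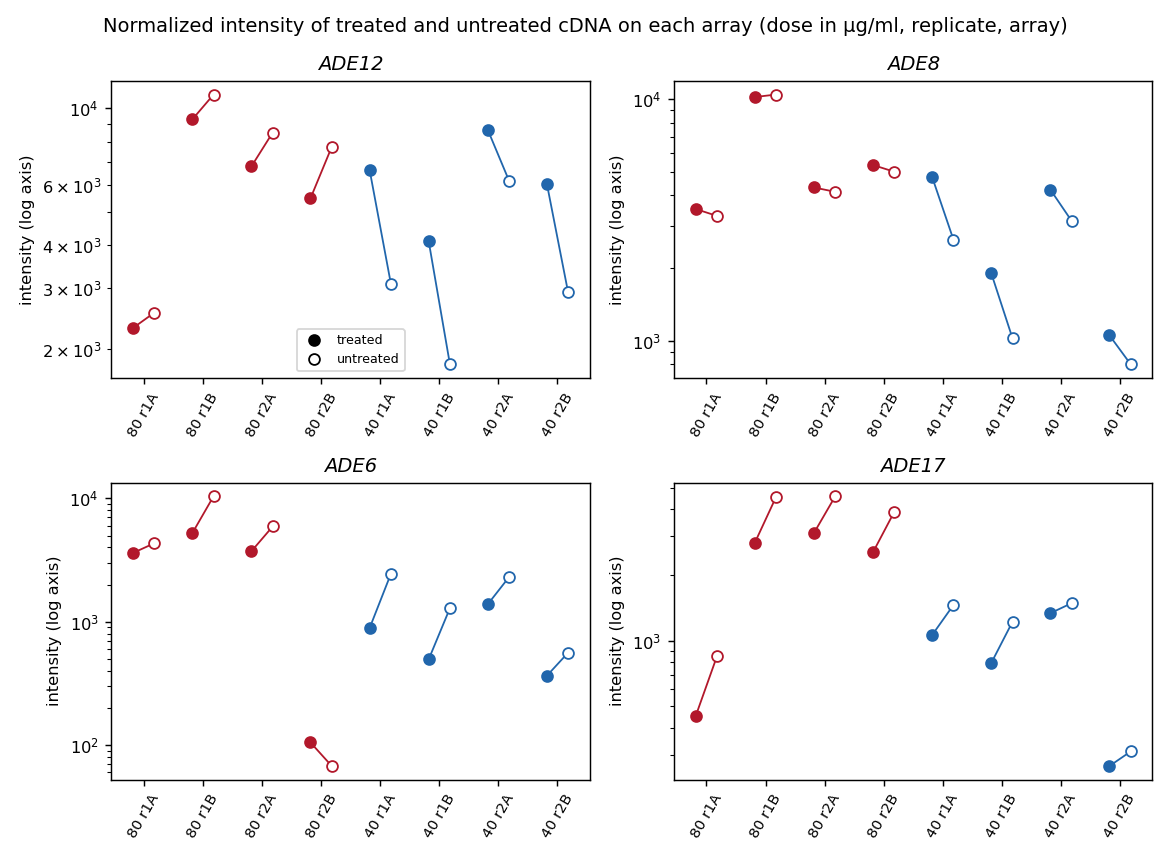
Normalized intensity (log axis) of treated (filled) and untreated (open) cDNA for *ADE12*, *ADE8*, *ADE6* and *ADE17* on each array (x axis: dose in μg/ml, replicate and array), with a line joining both channels of an array. After normalization *ADE12* and *ADE8* were brighter in treated cells on all 4 arrays of 40 μg/ml, and *ADE17* was dimmer on all 8 arrays. Raw signals of *ADE12* and *ADE8* were lower in treated cells on array A of replicate 1 and array B of replicate 2 of 40 μg/ml. The *ADE6* spot on array B of replicate 2 of 80 μg/ml stood at 105 in treated and 68 in untreated cells.

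*ADE3* (YGR204W) encodes the cytoplasmic C1-tetrahydrofolate synthase, which supplies the formyl groups that the *ADE8* and *ADE17* enzymes use. Its log2 ratios were 0.06, -0.32, -0.11 and -0.25 at 80 μg/ml and -0.32, -0.83, -0.60 and -0.37 at 40 μg/ml. All 4 arrays of 40 μg/ml lay at or below the lowest of 80 μg/ml. The mean was -0.15 ± 0.04 at 80 μg/ml (limma adjusted p = 0.691) and -0.53 ± 0.07 at 40 μg/ml (adjusted p = 0.0489), or 69.3% of the untreated level. This value stood closest to the threshold of the 5 calls and passed in 6 of 16 alternatives. Without replicate 1 of 40 μg/ml the adjusted p was 0.0861, and without either replicate of 80 μg/ml it was 0.155.

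**Figure D3:**
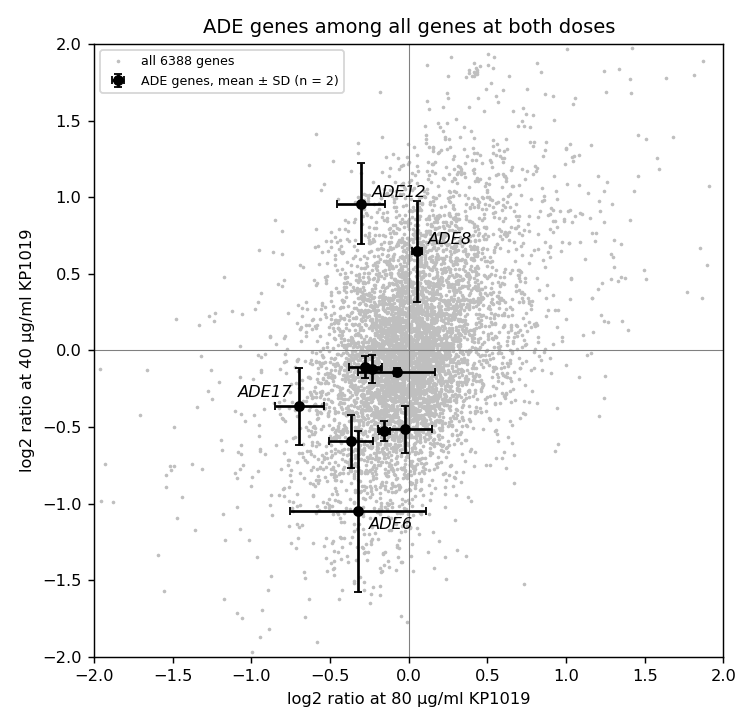
Mean log2 ratio at 80 μg/ml (x axis) and at 40 μg/ml KP1019 (y axis) for all genes (grey, 41 lie outside the plotted range) and for the *ADE* genes (black, ± SD, n = 2 per dose). *ADE12* stands at -0.30 and 0.96, *ADE8* at 0.05 and 0.65, *ADE6* at -0.32 and -1.05 and *ADE17* at -0.69 and -0.36. The remaining members lie between -0.37 and -0.02 at 80 μg/ml and between -0.59 and -0.11 at 40 μg/ml.

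The genes of both transcription factors did not pass the test at either dose. *BAS1* averaged -0.06 ± 0.06 at 80 μg/ml (adjusted p = 0.906) and -0.51 ± 0.01 at 40 μg/ml (adjusted p = 0.0531), and its spot exceeded the blank spots on 6 of 8 arrays. *PHO2* averaged -0.21 ± 0.35 (adjusted p = 0.618) and 0.06 ± 0.11 (adjusted p = 0.852) at 80 and 40 μg/ml, and exceeded them on 7 of 8 arrays.

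Lists around the pathway held 52 further genes, among them *ADE16*, *BAS1* and *PHO2*. None of these, 0 of 52, passed the limma test at 80 μg/ml, where 3.52% of all genes did. An unadjusted p under 0.05 was found for 10 of the 52 and for 1180 of all 6388 genes. At 40 μg/ml 4 of the 52 rose and 14 fell, or 34.6% in either direction. Over all genes at that dose 13% were called higher and 10.3% lower, 23.3% in all, and the counts of each list below stand against these shares. The PRPP synthetase genes make the substrate of the *ADE4* enzyme, and 1 of 5 changed at 40 μg/ml, with *PRS3* at -0.75 ± 0.29 (adjusted p = 0.0227). *PRS1* was also below 0 (-0.38 ± 0.30, adjusted p = 0.165), the other 3 genes were above 0 without passing, and the median over the 5 was 0.05 at 80 μg/ml and 0.34 at 40 μg/ml. Of 9 one-carbon and glycine genes 2 fell at 40 μg/ml. They were *MTD1*, a cytoplasmic methylenetetrahydrofolate dehydrogenase (-0.72 ± 0.33, adjusted p = 0.0286), and *LPD1*, the lipoamide dehydrogenase shared by glycine cleavage and other complexes (-0.59 ± 0.18, adjusted p = 0.0456). The list's median was -0.30 at 80 μg/ml and -0.29 at 40 μg/ml.

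Genes of the guanine branch and of the nucleotide kinases had 1 of 10 higher and 5 lower at 40 μg/ml, or 60%, against 23.3% of all genes. *IMD3*, an IMP dehydrogenase of the branch to GMP, fell to a log2 ratio of -1.32 ± 0.38 (adjusted p = 0.00658), adenylate kinase *ADK1* to -1.02 ± 0.36 (adjusted p = 0.0123), adenosine kinase *ADO1* to -0.98 ± 0.48 (adjusted p = 0.0162) and guanylate kinase *GUK1* to -1.51 ± 1.11 (adjusted p = 0.0184). The other called genes of this list, named after their values were seen, were AMP deaminase *AMD1* at 0.59 ± 0.02 (adjusted p = 0.0377) and *IMD4* at -0.68 ± 0.43 (adjusted p = 0.0418). Replicate 1 was further from 0 than replicate 2 for *GUK1* (-2.29 and -0.73), *ADO1* (-1.31 and -0.64) and *IMD4* (-0.98 and -0.38). The *IMD* genes are near-identical paralogs, so that a spot of one may also bind transcripts of another. The median of the list was -0.31 at 80 μg/ml and -0.55 at 40 μg/ml. Purine salvage and transport had 1 of 13 genes higher and 3 lower at 40 μg/ml. The purine-cytosine permease *FCY2* stood at -0.98 ± 0.29 (adjusted p = 0.0123), adenine phosphoribosyltransferase *APT1* at -0.72 ± 0.42 (adjusted p = 0.0366), the permease-family gene *FCY22* at -0.58 ± 0.23 (adjusted p = 0.0437) and the pyridoxine transporter *TPN1* at 0.73 ± 0.46 (adjusted p = 0.0355). In replicate 2 alone *APT1* was at -0.43 and *TPN1* at 0.41. The list's median was -0.00 at 80 μg/ml and -0.22 at 40 μg/ml.

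The histidine pathway releases AICAR, which the *ADE17* enzyme uses, and 1 of its 4 listed genes changed at 40 μg/ml, with *HIS7* at 0.70 ± 0.48 (replicates 1.05 and 0.36, adjusted p = 0.0437). The median of these 4 genes was -0.39 at 80 μg/ml and 0.38 at 40 μg/ml. Of 8 pyrimidine synthesis genes, taken as a neighbouring pathway, 1 rose and 3 fell at 40 μg/ml. *URA10* stood at 1.01 ± 0.16 (adjusted p = 0.00885) and its isozyme gene *URA5*, which encodes the same orotate phosphoribosyltransferase activity, at -1.02 ± 0.90 (replicates -1.66 and -0.39, adjusted p = 0.0463). Dihydroorotate dehydrogenase *URA1* was at -0.99 ± 0.67 (replicates -1.47 and -0.52, adjusted p = 0.0256) and uridylate kinase *URA6* at -0.64 ± 0.28 (adjusted p = 0.0396). The median of the 8 genes was -0.27 at 80 μg/ml and -0.36 at 40 μg/ml.

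**Figure D4:**
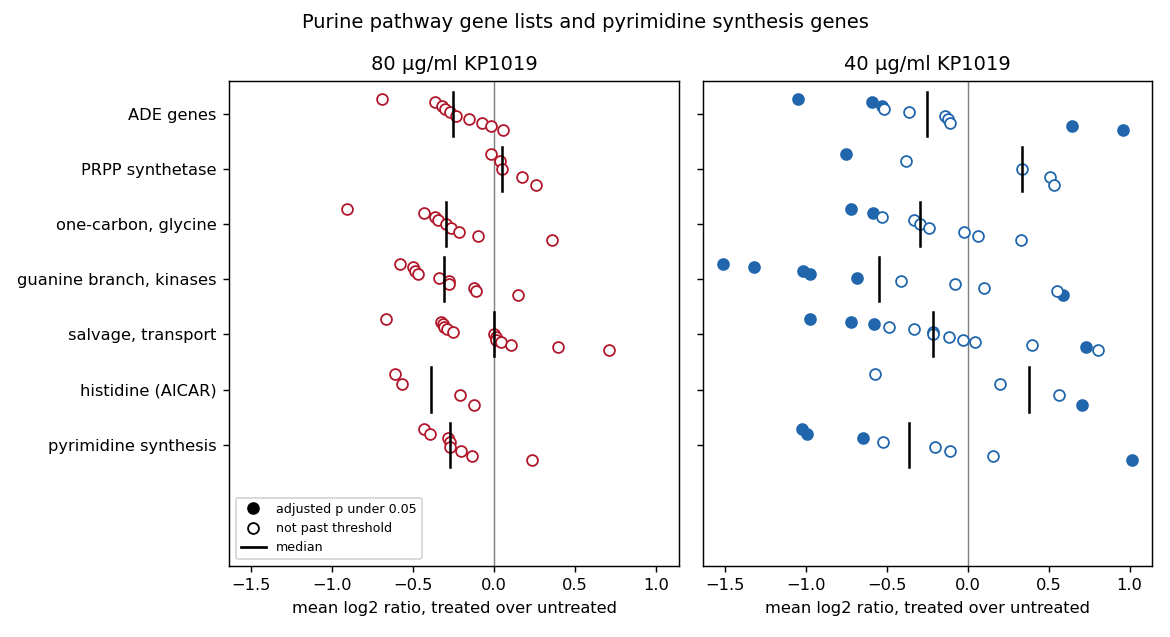
Mean log2 ratio (x axis) of each gene in the *ADE* list and in 6 neighbouring lists (rows) at 80 μg/ml (left) and 40 μg/ml KP1019 (right), with filled circles for an adjusted p under 0.05, open circles for the others and a vertical line at the median. At 80 μg/ml no circle is filled. At 40 μg/ml 5 of 10 *ADE* genes, 6 of 10 guanine branch and kinase genes and 4 of 8 pyrimidine genes are filled.

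The genes that flank the members on their chromosomes were looked up in the RefSeq annotation, and 0 of 20 overlapped a member. At 80 μg/ml 0 of the 20 neighbours passed the test, and at 40 μg/ml 4 rose and 1 fell, 5 of 20 where 23.3% of all genes were called. *ERG25*, a sterol synthesis gene beside *ADE6*, stood at 1.10 at 40 μg/ml (adjusted p = 0.00965), the opposite sign to *ADE6*. *TDA10* beside *ADE3* was at 1.23 (adjusted p = 0.0242) and the ribosomal protein gene *RPL15B* beside *ADE17* at -1.23 (adjusted p = 0.0180). *POP1* beside *ADE12* was at 0.65 (adjusted p = 0.0316) and *TRS120* beside *ADE8* at 0.79 (adjusted p = 0.0312).

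The median member had log2 ratios of -0.26 and -0.19 in the replicates of 80 μg/ml and -0.36 and -0.17 in those of 40 μg/ml. Among 4043 other genes above the blank spots on all arrays, those nearest to it over the 4 replicates were *ACP1*, *SDD4*, *TOM71*, *PIK1* and *APL4*, with root mean square distances of 0.030 to 0.050. Of the members, *ADE2* was the nearest (0.107) and *ADE12* the furthest (0.897). With 4 values per gene this is a description of likeness only.

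**Figure D5:**
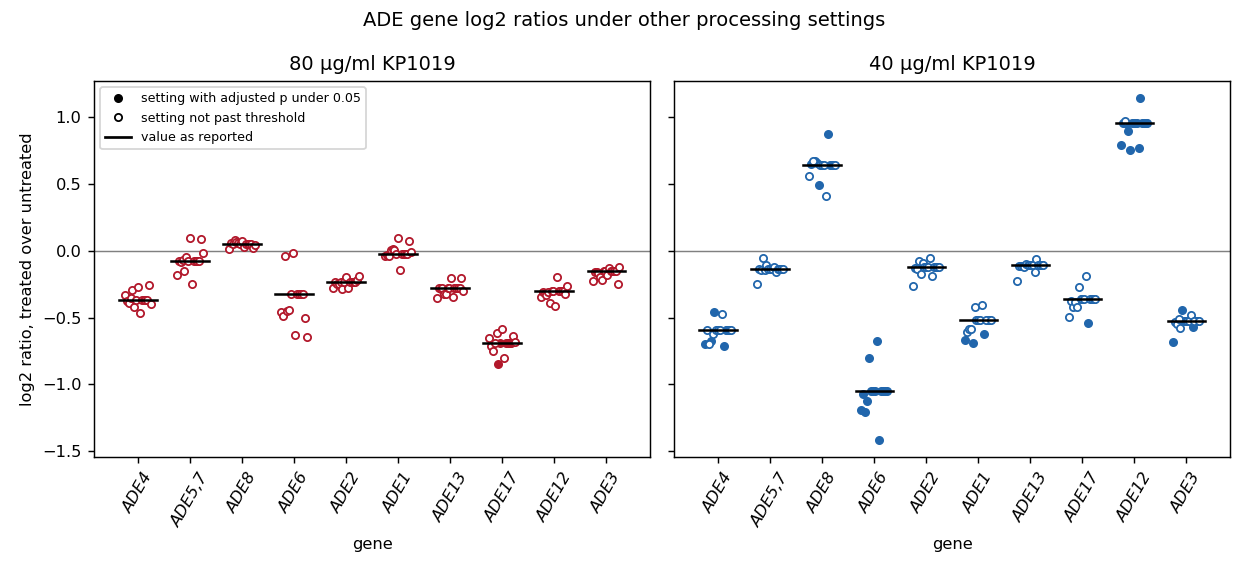
Log2 ratio (y axis) of the 10 *ADE* genes at 80 μg/ml (left) and 40 μg/ml KP1019 (right) under each alternative processing setting, filled where the adjusted p was under 0.05, with a horizontal line at the reported value. *ADE6* at 40 μg/ml is filled in 14 of 14 and *ADE12* in 15 of 16 settings, while *ADE8*, *ADE4* and *ADE3* are filled in 8 of 15, 7 of 15 and 6 of 16. *ADE6* was not measured among bright genes only or with subtracted background. With subtracted background no measured member is filled at 40 μg/ml.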

How the data were processed

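Treated and untreated cDNA were compared on 8 two-colour arrays. The authors quantified the images in MagicTool (adaptive circle, radius of 3 to 8 pixels, threshold 50) and deposited mean and total foreground and background intensity values of 6688 features per array without normalization. Each array carried the genome in 2 copies per the methods, but 1 value per feature was deposited. The deposited score table holds signed fold changes of red over green total foreground times 1 factor per array, without background subtraction and by a normalization of unstated method (r = 1 with the raw ratio, median log2 red over green of -0.205 to 0.108 per array), and served as an alternative.

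In R 4.3.3 with limma 3.58.1, mean intensities were background-corrected with normexp (offset 50), and loess normalization was run array by array, giving weight 0 to 85 blanks and 23 controls. Spots of a gene, then the oriented dye-reversal arrays, were averaged. Log2 ratios were fitted with lmFit and eBayes over all 6388 genes (2 residual and 5.66 prior degrees of freedom). The labels call the replicates biological, and p-values measure only the spread between these samples. Of the gene names, 5849 matched RefSeq, which was used for names and neighbours. No genome build is named in the files and no sequence or coordinate is given. The number of unused columns was 0.

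Members and gene lists were chosen with earlier results of these data known. Genes named are the members, *ADE16*, *BAS1*, *PHO2*, per list at most 4 genes past the threshold with the smallest p at a dose, the markers of BY4741 and the 5 genes most like the median member. *PRS1*, *HIS4*, *AMD1* and *IMD4* were named outside this rule. Flanking genes and mating-type genes were added after values were seen. Calculations were tested on simulated data. Alternatives were another normalization or background correction, total intensities, the deposited ratios, arrays scaled to 1 spread, bright genes only, each dose alone, leaving out each replicate and the replicate number as a block. A crossed block and leaving out array A of replicate 1 or array B of replicate 2 of 80 μg/ml were added after seeing the data.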

Additional observations from a re-analysis of the deposited data

Results flagged for a closer look

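*ADE12* was flagged because both replicates of 80 μg/ml (-0.19 and -0.41) and both of 40 μg/ml (1.14 and 0.77) lay on opposite sides of 0. The pattern was not particular to *ADE12*. In the neighbouring lists *URA10* had -0.32 and -0.22 at 80 μg/ml and 1.13 and 0.90 at 40 μg/ml (difference -1.29, limma unadjusted p = 0.000639). *HIS4* had -0.71 and -0.43, then 0.87 and 0.26. *PRS3* and *MTD1* had the reverse signs, above 0 at 80 μg/ml and below 0 at 40 μg/ml. On array B of replicate 1 of 80 μg/ml the *PRS3* foreground (1999 treated, 1910 untreated) lay below its local background (2164 and 2069). The remaining arrays of 80 μg/ml gave 0.37, 0.25 and 0.33 for *PRS3*. For *ADE12* the difference of 80 minus 40 μg/ml was -1.26 on the log2 scale, with an unadjusted p of 0.00112 and a limma adjusted p of 0.106. The arrays of the 2 doses also differed in their mating-type transcripts and in the spread of their ratios, and the part of either in this difference was not tested. No group held enough replicates for a search for outlying samples.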

How the results depend on the processing

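Of the *ADE* genes, 5 passed at 40 μg/ml as reported, 3 without background correction, 0 with the background subtracted (9 members tested), 2 among bright genes only (3 members tested), 2 with each dose fitted alone, 2 to 7 with a replicate left out, and 2 without array B of replicate 2 of 80 μg/ml. At 80 μg/ml 0 passed as reported, 1 (*ADE17*) with arrays scaled to 1 spread or each dose alone, and 0 to 1 with a replicate left out. Between doses 0 passed as reported, 1 (*ADE12*) with scaled arrays, and 0 to 3 with a replicate left out. The median over the members at 40 μg/ml was -0.25, and between -0.38 (median centring) and -0.11 (bright genes only) over the alternatives, with -0.15 under subtracted background, and at 80 μg/ml it was -0.26 to -0.19 with a replicate left out. Median centring kept 5 members at 40 μg/ml, with 1 higher and 4 lower. No result changed its direction past a threshold. The causes were not tested.

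Over all genes, 225 passed at 80 μg/ml as reported (1180 at an unadjusted p under 0.05), 53 with subtracted background, 1476 with scaled arrays, 7 among bright genes, 1415 with each dose alone and 82 to 1415 with a replicate left out. At 40 μg/ml 1489 passed as reported, 389 with subtracted background, 390 among bright genes (988 tested) and 1080 to 3059 with a replicate left out. Between the doses 9 passed as reported, 0 with subtracted background (limma, against 1337 at an unadjusted p under 0.05 as reported), 3 with total intensities, 5 with the deposited ratios, 597 with scaled arrays, 1 among bright genes, 6 without array B of replicate 2 of 80 μg/ml and 29 to 2339 with a replicate left out.

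The labels do not tie the replicate numbers of the doses, and deviations of same-numbered replicates correlated at -0.136. With the replicate number as a block, 469 genes passed at 80 μg/ml and 440 between the doses, with 1 member each (*ADE17*, adjusted p = 0.0429, and *ADE12*, adjusted p = 0.00897), and 4 members at 40 μg/ml, where *ADE3* was lost (adjusted p = 0.0708). With the pairing crossed, 702 and 830 genes passed, with 1 member each.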
